A study of Ovis aries with 15 samples.

Results

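The 10 genes described here, B2M, TAP1, TAP2, TAPBP, PSMB8, PSMB9, ERAP1, NLRC5, CD74 and CIITA, encode parts of the machinery that cuts proteins into peptides and shows them to T cells. They were taken by symbol from a table of 24691 features of the sheep genome, in which each symbol named 1 feature, and all 10 passed the filter on low reads. RNA came from needle biopsies of mammary parenchyma of Romney ewes that were 2 years old and in their first lactation, and was sequenced as 15 pools. Of these libraries, 9 came from ewes at a mean of 135 days of gestation (SD 2.4) and 6 from ewes in milk for a mean of 15 days (SD 1.27). All ewes were managed alike, and the libraries differ further in what the ewes' own dams were fed during their pregnancy. The dams of HM ewes had pasture ad libitum from day 21 to day 50 and a maintenance allowance from then to day 140. The dams of MM ewes had a maintenance allowance throughout, and those of LM ewes a sub-maintenance allowance from day 21 to day 50 followed by maintenance. Each of these groups holds 3 late pregnancy and 2 lactation libraries. A library is a pool of several ewes (3 by the methods, or 2 for lactation by the sample labels), so p-values measure the spread between pools and not between ewes. The biopsied ewes were sampled again in lactation, and which ewes share a pool in both states is not given.

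In the class I pathway, cytosolic proteins are cut by the proteasome, peptides are pumped into the endoplasmic reticulum by the TAP transporter, trimmed there and loaded onto a heavy chain paired with beta-2-microglobulin, and the complex travels to the surface of nearly every nucleated cell. Interferon-gamma replaces the catalytic subunits of the proteasome by those of the immunoproteasome. In the class II pathway, macrophages, dendritic cells and B cells load peptides of engulfed proteins onto class II chains that were escorted by the invariant chain. The same beta-2-microglobulin also pairs with the neonatal Fc receptor, which carries antibodies across mammary epithelium. The sequences and levels of the class I heavy chains were not analysed here.

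A late pregnancy library contributed 6471237 to 16898986 reads to the comparison and a lactation library 9014506 to 24001031. Genes of 7 milk proteins held 13.7% to 23.4% of reads before birth and 71.3% to 75.8% after it. The HM pool 1 library of lactation stood apart from the other lactation libraries, with 13.2% of its gene reads on introns where the median of the 6 was 6.47%, and the late pregnancy libraries had 14.44% to 16.15%. Because of the milk protein reads, the size of each gene's change depends on how libraries are brought to 1 scale. For B2M and ERAP1 the direction does too. The main scale was TMM, the trimmed mean of M-values of edgeR, which centres the bulk of genes: the median log2 change of the 13345 tested genes was -0.03 on it. Levels are given as CPM, which are counts per 1e6 reads of the TMM-scaled library size, and as CPM per kilobase of exon where genes are compared with each other.

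On the TMM scale 8 of the 10 genes fell from late pregnancy to lactation and 2, B2M and ERAP1, rose (edgeR quasi-likelihood test, Benjamini-Hochberg adjusted p under 0.05). Of all tested genes, 35.2% were called lower and 33.1% higher. The median log2 change of the 10 was -1.07, beside the -0.03 of all tested genes. In 7 of the 10, every lactation library lay below every late pregnancy library, which held for 20.0% of tested genes, and the opposite separation, which held for 20.2%, was found in none of the 10. Without the HM pool 1 library of lactation the counts were again 8 lower and 2 higher. The changes ran from a fall of PSMB9 to 1 part in 4.65 to a rise of ERAP1 by 1.32-fold, so the genes did not move as a block. DESeq2 gave the same counts. When library sizes were taken without the milk protein genes, and on the scale of the reference genes PRPF3 and CUL1, 8 were lower and 0 higher. Of the 13345 tested genes, 48.5% and 51.6% were called lower on these scales, and 3032 and 2696 genes were called higher. With library size as the only scale all 10 were lower, as were 95.2% of tested genes, so that count is near the share of all genes. On the library size scale no gene of the lists described below, milk proteins apart, was called higher, so each rise given below is a rise relative to the bulk of genes. In a bulk biopsy, fewer cells of a type and less RNA per cell cannot be told apart.

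**Figure D1:**
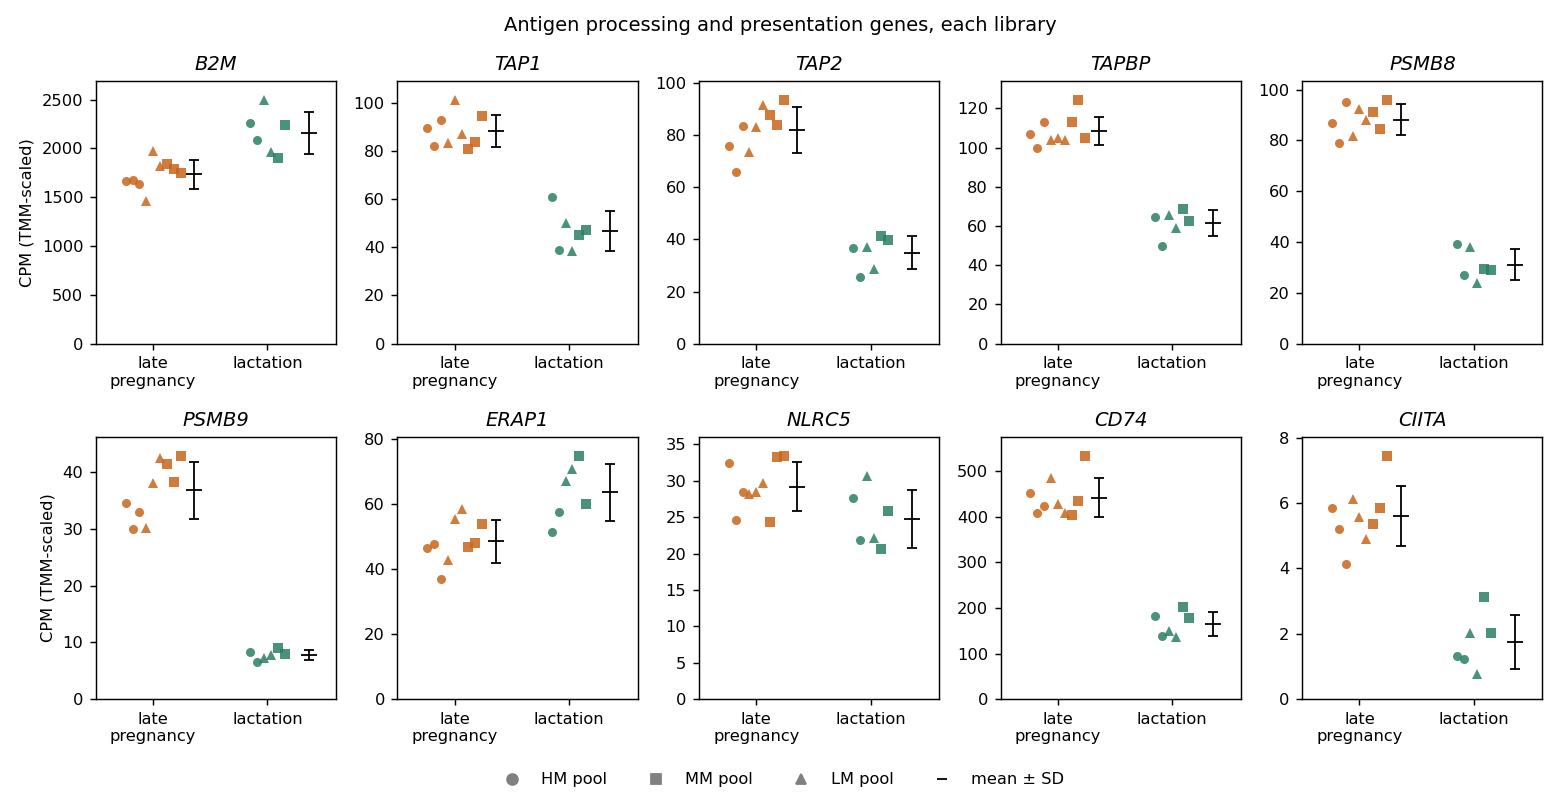
CPM on the TMM scale (vertical axes from 0) of each gene in each of the 9 late pregnancy and 6 lactation libraries, with the symbol giving the dam nutrition group and bars giving mean ± SD. TAP1, TAP2, TAPBP, PSMB8, PSMB9, CD74 and CIITA separate with lactation lower, whereas B2M, ERAP1 and NLRC5 overlap between the states.

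B2M encodes beta-2-microglobulin, the light chain of every class I molecule, and lies on chromosome 7 from 99939430 to 99944167, with 3 exons of 383 bases in all. Coordinates are those of the deposited table, whose processing notes name the assembly Oar_v3.1. It was by far the most abundant of the 10 per length, at 4526 ± 378 CPM per kilobase (SD, n = 9) before birth and 5635 ± 566 (SD, n = 6) after it. CPM ran from 1464 through a median of 1748 to 1971 in late pregnancy, and from 1906 through 2165 to 2491 in lactation. The states overlapped only through the LM pool 2 library of late pregnancy, at 1971, which lay above the MM pool 1 and LM pool 2 libraries of lactation, at 1906 and 1961. The log2 change was 0.32 (SE 0.07, adjusted p = 5.4e-04), a 1.24-fold rise, and 71.1% of tested genes had a lower value.

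The scaling decides the direction of B2M. As a share of all exon reads (the reads of the comparison), B2M ran from 0.24% through a median of 0.311% to 0.361% over the late pregnancy libraries. In lactation it ran from 0.0862% through 0.094% to 0.114%. The shares did not overlap and their means differed 3.02-fold (exact two-sided permutation test, p = 2.0e-04, the smallest that 9 against 6 libraries can give). With library size as the only scale, the log2 change was -1.59 (adjusted p = 1.4e-13), but on that scale 95.2% of tested genes were called lower and the median change of all genes was -1.94. B2M lay 0.34 above that median, and on the TMM scale 0.35 above it, so its place among the other genes hardly moved.

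Once the 7 milk protein genes were left out of the denominator, the share of B2M was 0.357% ± 0.0366 (SD, n = 9) in late pregnancy against 0.384% ± 0.0344 (SD, n = 6), a difference within the spread (exact two-sided permutation test, p = 0.185). The edgeR fit on that scale gave 0.10 (adjusted p = 0.217). Set against PRPF3 and CUL1, used as reference genes for this tissue, B2M had 54.6 ± 4.49 reads per read of their geometric mean in late pregnancy and 56.3 ± 3.57 in lactation, which did not differ either (log2 change 0.04, adjusted p = 0.578). PRPF3 and CUL1 were themselves called higher in lactation on the TMM scale, by 0.3 and 0.23 (edgeR, adjusted p = 4.7e-05 and 4.2e-04). Their scale therefore shows that B2M moved about as these genes did, and not that it was stable. On the reference gene scale 51.6% of tested genes were called lower and the median change was -0.29, which again leaves B2M above the middle of the genes. RLE scaling gave 0.32 as TMM did, and upper quartile scaling 0.16 (adjusted p = 0.047).

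The largest fall of B2M came with the deposited quantile-normalized RPKM. Quantile normalization gives the gene at a given rank of a library the same value in every library. B2M was the 6th gene by RPKM in 7 late pregnancy libraries, the 7th in 1 and the 8th in 1, while in lactation it was the 9th in 4 and the 10th in 2. Rank 6 receives 26467, rank 7 receives 7070, rank 8 receives 4801, rank 9 receives 3750 and rank 10 receives 3454. B2M therefore reads 26467 in 7 late pregnancy libraries, 7070 in LM pool 1 and 4801 in HM pool 1, against 3454 or 3750 in lactation. With limma on log2 of these values plus 1, the change was -2.37 (adjusted p = 1.5e-05), on a scale where 38.1% of tested genes were called lower and the median change was -0.05. The other 9 genes kept their direction on that scale, with ERAP1 at 0.21 (adjusted p = 0.066).

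**Figure D2:**
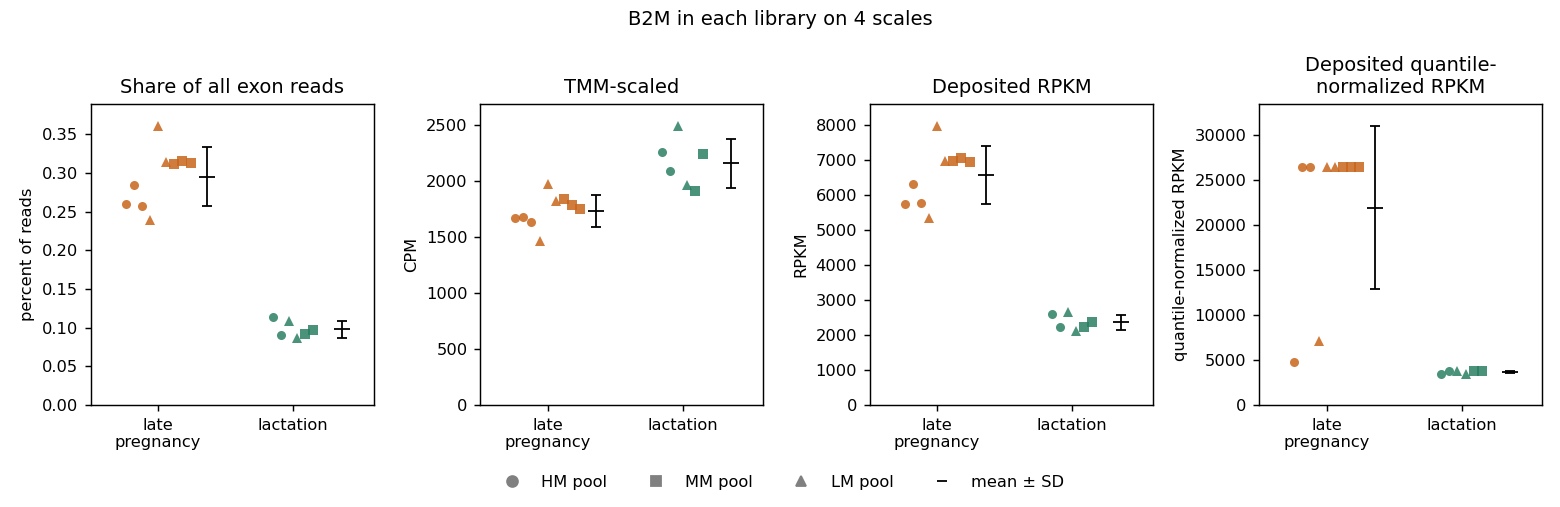
B2M in each library as a percent of all exon reads, as CPM on the TMM scale, as deposited RPKM and as deposited quantile-normalized RPKM, with mean ± SD (vertical axes from 0). Lactation lies above late pregnancy on the TMM scale with overlap and below it without overlap on the other scales shown, and 7 late pregnancy libraries share the quantile-normalized value 26467.

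**Figure D3:**
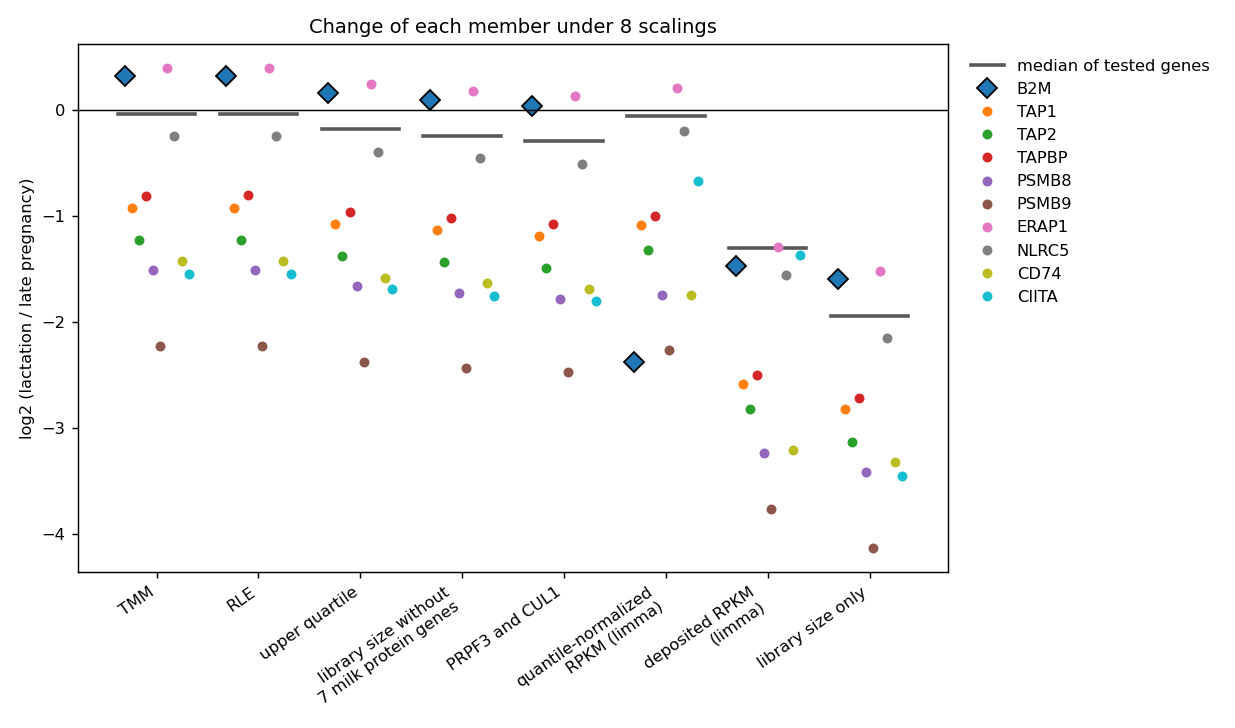
Log2 change from late pregnancy to lactation of each gene under 8 scalings, with the median of all tested genes as a grey bar. B2M (diamond) moves from 0.32 to -2.37. It lies above the median in 6 of the 8 and below it with deposited RPKM and quantile-normalized RPKM. Both of these fits add 1 to RPKM before the log, which draws the changes of genes with low RPKM toward 0. With 0.1 added to quantile-normalized RPKM instead, B2M was again -2.37 and the median was -0.07. With deposited RPKM the median was -1.3, where library size gave -1.94, while B2M had -1.47 and -1.59. TAP1, TAP2, TAPBP, PSMB8, PSMB9, NLRC5, CD74 and CIITA lie below 0 in all 8.

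ERAP1, the aminopeptidase that trims peptides to length in the endoplasmic reticulum, was the other gene to rise on the TMM scale and the other one whose direction depends on the scale. CPM ran from 37.1 through a median of 47.9 to 58.7 in late pregnancy and from 51.6 through 63.7 to 74.9 in lactation, with overlap. The log2 change was 0.40 (SE 0.09, adjusted p = 8.9e-04). It was 0.18 (adjusted p = 0.106) without milk protein genes in the library size, 0.14 (adjusted p = 0.257) on the reference gene scale and -1.52 (adjusted p = 2.4e-11) by library size. ERAP2, a related aminopeptidase, fell by 0.51 on the log2 scale (adjusted p = 1.5e-04), whereas LNPEP, another trimming enzyme of the family, rose by 0.86 (adjusted p = 7.1e-06).

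TAP1 and TAP2 form the peptide transporter, and TAPBP encodes tapasin, which holds an empty class I molecule beside it. TAP1 had 81.0 to 101 CPM (median 86.9) in late pregnancy and 38.6 to 60.9 (median 46.0) in lactation, and its log2 change was -0.92 (SE 0.08, adjusted p = 6.7e-09). TAP2 had 66.1 to 93.4 CPM (median 83.7) and then 25.7 to 41.3 (median 37.0), a log2 change of -1.22 (SE 0.10, adjusted p = 1.2e-09). TAPBP had 99.9 to 124 CPM (median 105) and then 49.9 to 68.7 (median 63.5), a log2 change of -0.81 (SE 0.07, adjusted p = 1.3e-09). None of these 3 genes overlapped between the states. The highest TAP1 value of lactation was in the HM pool 1 library, and without it the change of TAP1 was -1.0. The ratio of TAP2 to TAP1 per kilobase within a library, chosen after the values were seen, fell from 0.825 to 0.664 (geometric means, exact permutation p = 7.2e-03, adjusted p = 0.018 over 5 such ratios), with overlap.

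PSMB8 and PSMB9 encode catalytic subunits of the immunoproteasome and had the largest falls on the TMM scale among the class I genes of the 10. PSMB8 had 78.8 to 95.7 CPM (median 87.9) in late pregnancy and 24.0 to 39.1 (median 29.1) in lactation. Its log2 change was -1.51 (SE 0.09, adjusted p = 9.7e-12). PSMB9 had 30.0 to 42.8 CPM (median 38.1) in late pregnancy and 6.51 to 9.05 (median 7.90) in lactation. The change of PSMB9 was -2.22 (SE 0.11, adjusted p = 5.5e-13), a fall with 2.8% of tested genes lower. The lactation libraries rest on 37 to 104 reads of PSMB9.

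Each catalytic subunit of the immunoproteasome has a counterpart in the standard proteasome, and ratios within a library do not depend on the scaling. The ratio of PSMB8 to PSMB5 per kilobase fell from 2.68 to 0.73, so PSMB8 lay above its counterpart in late pregnancy and below it in lactation. The ratio of PSMB9 to PSMB6 fell from 0.622 to 0.12, and that of PSMB10, which is the remaining such subunit, to PSMB7 fell from 1.33 to 0.171. None of the 3 ratios overlapped between the states (exact two-sided permutation test, p = 2.0e-04 each, adjusted p = 2.4e-04 over 12 ratios). PSMB10 itself had 88.6 ± 9.89 CPM in late pregnancy and 10.4 ± 3.1 in lactation, a log2 change of -3.06 (adjusted p = 9.8e-14). PSMB9 also fell against PSMB8, from a ratio of 0.486 to 0.299 (chosen after the values were seen, adjusted p = 1.0e-03 over 5 ratios).

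Of 7 subunits of the standard proteasome core, 2 were called lower and 3 higher on the TMM scale, with a median of -0.08 and a largest change of 0.35, that of PSMB5. On the reference gene scale 4 were lower and 0 higher. Of 16 further genes of the class I pathway, 6 were called lower and 9 higher, with a median of 0.25, and the reference gene scale gave 7 lower, 4 higher and a median of -0.01. The fallers were PSMB10, the proteasome activator subunits PSME1 and PSME2 at -1.70 and -1.09, BLMH, ERAP2 and TAPBPL. PSME3, a further proteasome activator subunit, rose by 0.75. Those that rose include HSPA5, a chaperone of the endoplasmic reticulum, at 1.19 and SEC61A1, the channel through which proteins enter it, at 0.98, both of which serve secretion in general. CALR, CANX and PDIA3, which fold class I molecules among many other glycoproteins, rose by 0.42, 0.31 and 0.26. With library size as the only scale all 16 were lower, near the 95.2% of all tested genes.

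CD74, the invariant chain of class II molecules, was the next most abundant of the 10 per length after B2M, at 317 ± 30.8 CPM per kilobase in late pregnancy and 118 ± 18.7 in lactation. CPM ran from 403 through a median of 428 to 533 in late pregnancy and from 137 through 164 to 201 in lactation, without overlap. The log2 change was -1.42 (SE 0.09, adjusted p = 2.6e-11). CIITA, the transcriptional coactivator that class II genes depend on, was the least abundant, at 1.42 ± 0.23 CPM per kilobase and then 0.443 ± 0.212. It had 56 to 169 reads in a late pregnancy library and 4 to 36 in a lactation library. Its log2 change was -1.54 (SE 0.20, adjusted p = 1.2e-06), again without overlap, and ranged from -1.85 to -1.41 when each library was left out in turn.

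The class II chains that CD74 escorts are unnamed in the table and were matched by the RefSeq gene numbers of features LOC101109747 (DRA), LOC101119342 (DRB1) and LOC101108962 (DQA), which RefSeq names on a later assembly than that of the table. DRA changed by -1.44 (SE 0.08), DRB1 by -1.42 (SE 0.10) and DQA by -1.40 (SE 0.13), beside the -1.42 of CD74, and the largest adjusted p of the 3 was 6.7e-09. DRA and DRB1 had 278 ± 24.1 and 216 ± 28.8 CPM in late pregnancy. Reads of class II chains can be shared among alleles and near copies, so these counts are less certain than those of CD74. The ratio of CD74 to DRA per kilobase was 1.45 in late pregnancy and 1.46 in lactation (log2 means 0.54 ± 0.09 and 0.55 ± 0.10, exact permutation p = 0.813). CD74 to DRB1 was 2.24 and then 2.23 (p = 0.877 by the exact permutation test), and CD74 to DQA was 4.08 and then 3.92 (exact permutation p = 0.647). These ratios were chosen after the values were seen, and no difference between the states was detectable in them beyond a spread of 0.09 to 0.25 log2 units.

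Of 7 further tested genes listed beside class II presentation, 6 were called lower and 1 higher, with a median of -0.86. DESeq2 called 4 lower and 1 higher. The list is wider than the pathway. It holds the costimulatory molecules CD40, CD80 and CD86, and CD1D, which is given again below as a partner of beta-2-microglobulin. CD40 had only 1 to 31 reads a library and CD86 2 to 33. CTSS, a protease that cuts the invariant chain, had 108 ± 13.1 CPM in late pregnancy, 30.1 ± 6.37 in lactation and a log2 change of -1.84, the largest fall of the 7. LGMN, another lysosomal protease, rose by 0.44. The other proteins that pair with beta-2-microglobulin fell where tested: FCGRT, the neonatal Fc receptor, by 1.23, HFE by 1.73 and CD1D by 0.89 on the log2 scale. These 3 did so under each of the scalings tried.

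NLRC5, the coactivator of class I genes and a relative of CIITA, had the smallest change of the 10 on the TMM scale. B2M and ERAP1 changed less than NLRC5 on the reference gene, upper quartile and milk-free scales, by library size and with deposited RPKM. CPM of NLRC5 ran from 24.4 through a median of 28.5 to 33.4 in late pregnancy and from 20.6 through 23.9 to 30.7 in lactation, with overlap. The log2 change was -0.24 (SE 0.09, adjusted p = 0.029), and 38% of tested genes had a lower value. The call was lost in 6 of the 15 fits that left out 1 library. It was lost without HM pool 2 (-0.21, adjusted p = 0.072), LM pool 2 (-0.21, adjusted p = 0.069) or MM pool 1 of lactation (-0.19, adjusted p = 0.10), and without HM pool 1, MM pool 2 or MM pool 3 of late pregnancy (-0.22, adjusted p = 0.051 each). The fall was larger and called on the reference gene scale, at -0.51 (adjusted p = 4.1e-05). On that scale 51.6% of tested genes were called lower and their median was -0.29. NLRC5 less the median was -0.22 there and -0.21 on the TMM scale, so its place among the genes hardly moved.

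Of 13 tested regulators of these genes, 8 were called lower and 4 higher, with a median of -0.43. IRF1, a transcription factor induced by interferon, had 33.4 ± 4.41 CPM and then 6.02 ± 1.67, a log2 change of -2.41 (adjusted p = 4.1e-12). JAK1, a kinase of cytokine receptors, and IFNGR2, a subunit of the interferon-gamma receptor, rose by 1.19 and 1.43. IFNG itself had at most 2 reads in any library. Of 15 tested genes that interferons induce, 10 were called lower and 3 higher, with a median of -1.75, and CXCL10 at -3.29 and GBP5 at -2.46 were among the fallers while IRF9 rose by 0.52.

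Within a library B2M gained on 8 of the other 9 genes. Per kilobase it was 14.3 times CD74 in late pregnancy and 48.1 times in lactation, and 83.1 times PSMB9 and then 483 times. Against TAP1 the ratio rose from 121 to 287, and against TAPBP from 96.9 to 212. Each of these 8 ratios separated the states without overlap (exact permutation test, adjusted p between 2.4e-04 and 4.4e-04 over 12 ratios). The ratio of B2M to ERAP1 was 296 and then 281, with overlap (log2 means 8.21 ± 0.15 and 8.13 ± 0.30, p = 0.512 by the exact permutation test). These ratios hold whatever scale is chosen between libraries, except in the quantile-normalized values, which are not proportional to reads.

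**Figure D4:**
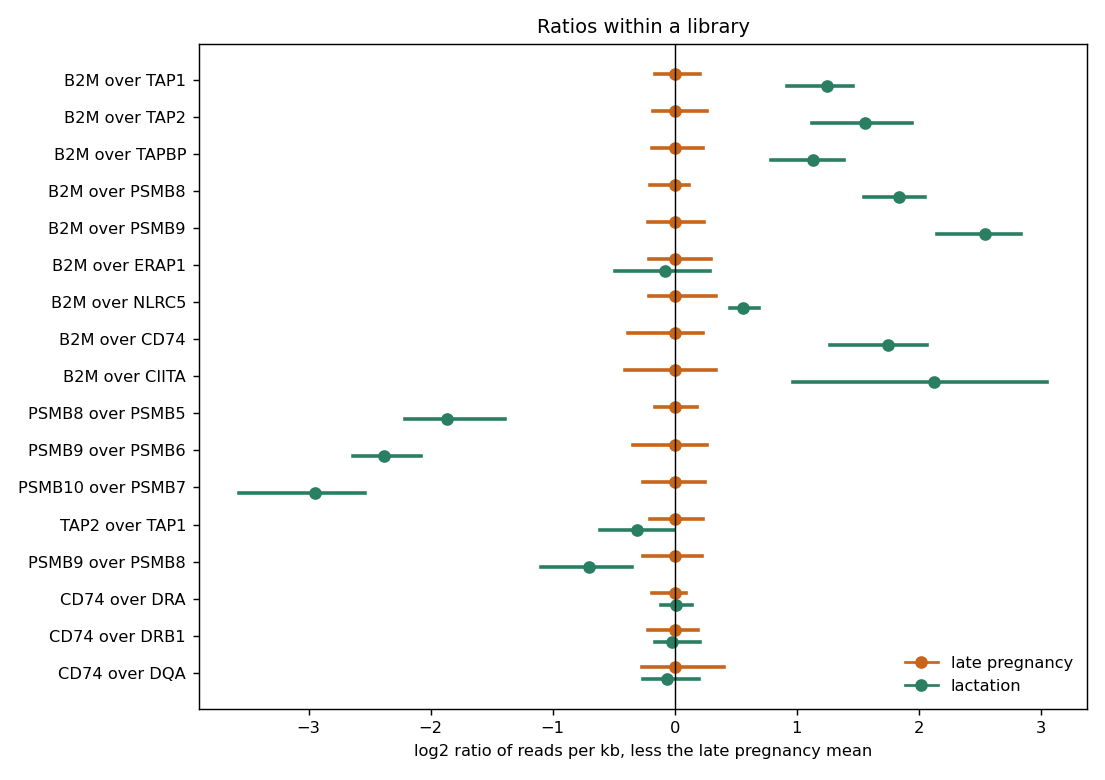
Log2 ratio of reads per kilobase within a library for 12 planned pairs and 5 chosen after the values were seen, less the late pregnancy mean. Dots are means over 9 or 6 libraries and lines run from the lowest to the highest library, with B2M gaining by 0.56 to 2.54 on all but ERAP1 and CD74 keeping its ratio to DRA, DRB1 and DQA.

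Reads on introns come mostly from RNA not yet spliced, and they were tested as reads on exons were. Of the 10 genes, 9 were called lower in lactation and none higher, where 29.0% of the 10344 genes tested on introns were called lower and 29.0% higher. On the TMM scale B2M was called in opposite directions by its exons and introns, whereas by library size both fell (-1.59 and -1.28), and the exon change was not called without milk protein genes or on the reference gene scale. Its intron reads ran from 158 through a median of 171 to 199 CPM in late pregnancy and from 99.3 through 111 to 122 in lactation, without overlap, a log2 change of -0.68 (SE 0.08, adjusted p = 1.4e-07). On the scale of the exon reads the change was -0.59. The exon model of B2M in the table sums to 383 bases, and whether the reads outside it come from introns alone was not tested. ERAP1 had -0.07 on introns (SE 0.20, adjusted p = 0.784). The other 8 fell on introns as on exons, from -0.27 for NLRC5 to -2.25 for PSMB9. For PSMB9, NLRC5 and CD74 the exon and intron changes lay within 0.1 of each other, with intron SE of 0.29, 0.1 and 0.14. A lactation library held only 1 to 6 intron reads of PSMB9, 2 to 7 of TAP2, 1 to 10 of PSMB8 and 2 to 21 of CIITA. The closeness for PSMB9 is therefore finer than its reads can show. The call of NLRC5 on introns was lost on the exon scale (-0.18, adjusted p = 0.201).

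**Figure D5:**
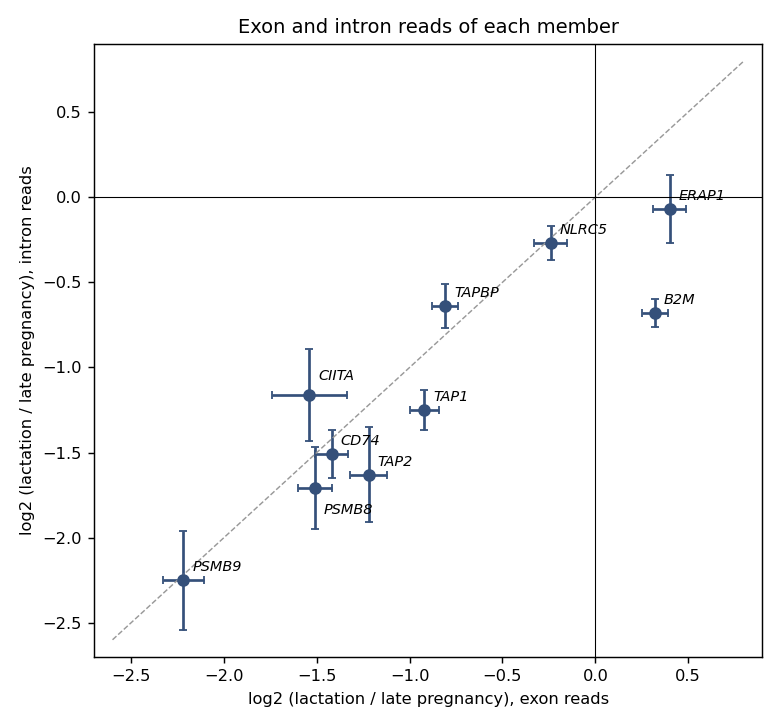
Log2 change from late pregnancy to lactation of each gene in exon reads (horizontal) and intron reads (vertical), each on its own TMM scale, with bars of 1 SE and a dashed line of equal change. B2M stands off the line with 0.32 on exons and -0.68 on introns, and ERAP1 with 0.40 and -0.07.

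Among the 10 genes, 4 lie side by side on chromosome 20 with no other feature of the table between them. TAP2 runs from 7264192 to 7272271, PSMB8 from 7277056 to 7280060, TAP1 from 7281263 to 7289690 and PSMB9 from 7290421 to 7296585, with only 730 bases between TAP1 and PSMB9. All 4 fell, by 0.92 to 2.22 on the log2 scale. The next tested features after PSMB9, LOC101109746 and LOC101116099, changed by -1.34 and -1.27, and the next before TAP2, LOC101109219, by -1.86 at 0.555 to 2.24 CPM. BRD2, which follows and encodes a protein that binds acetylated histones, rose by 0.85 (adjusted p = 1.6e-10), and GCLC on the other side had 0.13 (adjusted p = 0.171). TAPBP lies on the same chromosome from 7571767 to 7581253. ERAP1 and CD74 are on chromosome 5, NLRC5 on chromosome 14 and CIITA on chromosome 24.

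Most of the T cell and macrophage markers fell, as 8 of the 10 genes did, while dendritic cell markers were mixed and few B and plasma cell genes were tested. PTPRC, carried by all leukocytes, had a log2 change of -1.37. All 8 T cell genes were called lower, with a median of -1.64, and their summed level was 50.2 to 80.2 CPM in late pregnancy and 16 to 23.7 in lactation. Of 9 macrophage and monocyte genes, 7 were called lower and 1, CD14, higher (2.13), with sums of 175 to 226 and then 97.1 to 133 CPM. Of 5 tested dendritic cell genes 3, FLT3, CCR7 and ITGAX, were lower and 1, BATF3, higher (2.02). The sums of the dendritic cell list overlapped, at 10.5 to 13.9 (median 12.5) and then 12.3 to 19.8 (median 17.1). BATF3 alone, at 3.03 ± 0.436 CPM and then 12.3 ± 2.27, holds most of the lactation sum. B and plasma cell genes were scarce, with sums of 1.39 to 4.71 CPM over both states, and the B cell factor PAX5 at 0 reads in every library. Of the 3 tested, 1, CD79A, was called lower (-1.27), 0 were called higher and 2 were not called. The part of these cells in the change of any of the 10 genes was not tested.

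Markers of structural cells were counted in the same way. Of 7 genes of luminal epithelium, 4 were called higher and 1 lower, with a median of 0.30, and their sum rose from 1521 to 1877 CPM in late pregnancy to 2384 to 2621 in lactation without overlap. KRT19 and ELF5 hold most of that sum, while KRT8 and CDH1 were not called and GATA3 fell. KRT8 and EPCAM, which mark the epithelium the biopsy was meant to hold, were present in all libraries. Of 6 fibroblast genes, 5 were lower and none higher, with sums of 1311 to 2092 and then 618 to 998 CPM. Of 4 endothelial genes, 3 were lower and none higher, with a median of -0.52. The median of the epithelial genes was 0.04 on the reference gene scale and -1.61 by library size, so its direction depends on the scale.

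Dam nutrition was compared over the 9 late pregnancy libraries. All LM libraries are named for lane 8, while HM and MM have libraries in lane 7 and lane 8. Nutrition is thus partly confounded with lane. None of the 10 genes differed detectably between HM, MM and LM (edgeR quasi-likelihood test, adjusted p = 1.000 for each), and 0% of 13747 tested genes were called, with 571 at an unadjusted p under 0.05 and 20 called by DESeq2. PSMB9 had the smallest unadjusted p of the 10, at 0.052. It had 32.5 ± 2.33 CPM in HM, 40.8 ± 2.29 in MM and 36.9 ± 6.24 in LM (SD, n = 3 each), with HM below MM without overlap and LM spanning both. TAP2 followed with 75.2 ± 8.84, 88.4 ± 4.76 and 82.9 ± 9.03. The change from late pregnancy to lactation did not differ detectably between the nutrition groups for any of the 10 (interaction test of edgeR, smallest adjusted p = 0.837), where again 0% of 13345 tested genes were called, with 876 at an unadjusted p under 0.05 and 21 called by DESeq2.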

How the data were processed

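Paired reads from pooled RNA of ewe mammary biopsies (Illumina Hi-Seq, TruSeq) were mapped to the sheep genome by the authors in CLC Genomics Workbench. The deposited table holds, per feature and library, counts of reads on exons, of uniquely placed reads on exons and of reads on the whole gene, none of them normalized. Deposited RPKM are exon reads per kilobase of exon, scaled to the total of reads on genes, and the deposited normalized RPKM were quantile-normalized across the 15 libraries by the authors. Fold changes and p-values of the authors' own comparison were not used. Whether counting used the strand is not given in the sources used here.

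Exon reads (whole-gene reads for 5583 features without an annotated transcript, 4.173% of reads) were tested in R 4.3.3 with edgeR 4.0.16: filterByExpr by state, TMM, quasi-likelihood F-test, no covariates, Benjamini-Hochberg adjustment over all tested genes, threshold 0.05. Log2 changes are lactation over late pregnancy, and SE is the absolute log2 change over the square root of F. Uniquely placed reads made up 100.0% of exon reads of each of the 10 genes. Intron reads are whole-gene less exon reads. Dam nutrition was tested over late pregnancy libraries and as an interaction with state. Shares and ratios were compared by exact two-sided permutation of the state labels. Groups came from sample labels. Alternatives were DESeq2 1.42.0, limma 3.58.1 on log2(RPKM + 1) and log2(RPKM + 0.1), other scalings, filters and read types, each library left out, and nutrition, lane or replicate block as covariates. Fits were tested on simulated data.

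The genes named are the 10, at most 4 of each list with the smallest adjusted p, defining markers at or near 0, the neighbours on chromosome 20, and PRPF3 and CUL1. Any further gene of a list, such as ERAP2, LNPEP, CALR, LGMN or IRF9, was chosen after its values were seen. The 10 genes and all lists were chosen with earlier results of these data known. Precision is judged from the spread over libraries, since reads carry no molecular identifiers. Reads per library are given with the results. No sequences were used.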

Additional observations from a re-analysis of the deposited data

How the results depend on the processing

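Of the 10 genes, TAP1, TAP2, TAPBP, PSMB8, PSMB9, CD74 and CIITA were called lower in lactation under every alternative in which they were tested, while CIITA was not tested where each library had to hold 10 reads. The number of genes called higher was 0, against 2, with library size only, with the library size without milk protein genes, with PRPF3 and CUL1, with limma on deposited RPKM and with limma on quantile-normalized RPKM at either pseudocount. Of all 13345 tested genes, 352 were called higher with library size only, 3032 without milk protein genes and 2696 with PRPF3 and CUL1. With limma on quantile-normalized RPKM plus 1, 4111 were called higher. B2M was -1.59 with library size only, -1.47 with deposited RPKM, -2.37 with quantile-normalized RPKM at either pseudocount, 0.10 without milk protein genes and 0.04 with PRPF3 and CUL1. ERAP1 was -1.52 with library size only and -1.29 with deposited RPKM. The difference in the share of reads of B2M was -0.197 percentage points over all exon reads and 0.0263 without milk protein genes. By construction, library size and RPKM count the milk protein reads in the denominator, and quantile normalization sets values by rank.

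Leaving out each library in turn gave 0.27 to 0.35 for B2M, 9 to 10 genes called in all, 7 to 8 called lower and 11 of 12 ratios called throughout. The difference in the share of B2M ran from -0.204 to -0.189. The uncalled ratios of B2M to ERAP1 (-0.15 to 0.01), CD74 to DRA (-0.01 to 0.03) and CD74 to DRB1 (-0.06 to 0.02) crossed 0, and ERAP1 introns gave 0.01 on the exon scale. Within the libraries named for lane 7 and lane 8, a check chosen after seeing the data, 9 of the 10 genes kept their call, and NLRC5 had -0.32 (adjusted p = 0.094) and -0.17 (adjusted p = 0.200).

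Nutrition group and pool number match 6 libraries of each state, but same-numbered libraries did not all deviate together (correlations -0.045 to 0.12), so the numbers were not taken to pair them, and whether they share ewes is not given. With the replicate block over these 12 libraries B2M was 0.31, with 8 genes called lower and 2 higher, and without it over the same libraries NLRC5 lost its call (-0.21, adjusted p = 0.091). With the block, 11 of 12 ratios were called, while of the ratios chosen after the values were seen TAP2 to TAP1 (-0.27) and PSMB9 to PSMB8 (-0.69) lost theirs (adjusted p = 0.078 by the exact test over 64 sign patterns). No p of that test can be under 0.031 before adjustment, so the number of pairs sets this loss. In lactation, depth limits CIITA, with 4 to 36 reads a library.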
